A study of Mus musculus with 9 samples.

Results

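Elastic fibres and the microfibrils that carry them were followed through 10 genes in whole kidneys of mouse embryos at E15.5. The genes were *Eln*, *Fbn1*, *Fbn2*, *Fbln2*, *Fbln5*, *Efemp2*, *Mfap2*, *Mfap4*, *Emilin1* and *Lox*. They were taken by gene symbol from the deposited expression table, where each matched 1 of the 24138 loci. All 10 were detected in all 9 libraries and passed the minimum, a mean of 5 FPKM (fragments per kilobase of transcript, scaled to the mapped fragments of the library) in at least 1 of the genotypes compared. Between genotypes, no gene of the 10 passed the test after adjustment for all loci tested. The genes differed in level, in how much they varied between kidneys of 1 genotype, and in which kidneys were high together.

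Bulk RNA-seq was performed on kidneys from 3 crosses of mice kept on C57Bl6/J, with 3 libraries of each of 3 genotypes. *Foxd1GC/+;Ntn1fl/fl* kidneys (homozygous, MUT) carry the *Foxd1* GFP-Cre allele, which is active in stromal progenitors. These kidneys also carry 2 floxed alleles of *Ntn1*, the gene of the secreted guidance cue netrin 1. *Foxd1GC/+;Ntn1fl/+* kidneys (heterozygous, HET) carry the same Cre allele and 1 floxed allele. *Ntn1fl/fl* kidneys (WT) carry 2 floxed alleles and no Cre. Floxed *Ntn1* is thus shared by the 3 genotypes, and the loss of 1 *Foxd1* allele to the insertion is shared by HET and MUT. The labels name no treatment, libraries are numbered 1 to 3 within a genotype, and every comparison shares a genotype with the other two. Deletion is limited to the *Foxd1* lineage, while RNA came from the whole organ, so fewer cells of a type and less RNA per cell cannot be told apart.

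Elastic fibres give arteries and other stretched tissues their recoil. Secreted tropoelastin, the product of *Eln*, is deposited on a scaffold of fibrillin microfibrils, fibulins and microfibril-associated glycoproteins help to place it there, and lysyl oxidase crosslinks it. In the kidney, such fibres lie mainly in the walls of arteries, and microfibrils without elastin are also found in glomeruli and around tubules.

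The tissue label and the genotypes were checked first. *Six2*, the nephron progenitor transcription factor, ranged from 57.8 to 107 FPKM over the 9 libraries, and *Ret*, the receptor of ureteric tips, from 7.53 to 15.4 FPKM. In WT, *Ntn1* ranged from 17.8 to 28.9 FPKM, while it ranged from 12 to 16.5 FPKM in HET and from 10.8 to 16.5 FPKM in MUT. Every HET and MUT library lay below every WT library, while HET and MUT overlapped. *Foxd1* was 31±4.46 FPKM in WT, 21.1±0.801 in HET and 23.9±1.22 in MUT (mean±s.d., n=3 each).

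HET-2 and HET-3 stood apart in markers of other tissues, whose source was not tested. The 7 liver markers summed to 750 FPKM in HET-2 and to between 27 and 51.8 FPKM in the other 8 libraries. Albumin (*Alb*) was 244 FPKM in HET-2 and between 0.213 and 4.77 FPKM elsewhere, and *Afp* was the most abundant liver marker over all libraries, at 217 FPKM in HET-2. The 5 skeletal muscle markers summed to 109 FPKM in HET-3 and to between 5.78 and 13.5 FPKM elsewhere, with cardiac actin (*Actc1*) at 62.8 FPKM in HET-3 and *Ckm* listed at 0 in WT-2 and MUT-2. The medians over the 10 genes that involve HET are therefore given with these libraries and without them.

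The 10 genes spanned more than 1 order of magnitude in FPKM, which is scaled to transcript length. *Mfap2*, which encodes microfibril-associated glycoprotein 1, was the most abundant, with a mean of 171 FPKM over the 9 libraries. It was followed by *Emilin1* at 104, *Mfap4* at 94.9 and *Efemp2* at 72.3 FPKM. *Fbn2* and *Lox* were at 29.5 and 28.3 FPKM, and *Eln*, *Fbln5*, *Fbn1* and *Fbln2* at 16.5, 14.9, 14.7 and 10.7 FPKM. The RNA of *Mfap2* and *Mfap4* was thus more abundant than that of tropoelastin or of the fibrillins. Not all neighbours in this order were separated in every kidney. *Mfap2* lay above *Emilin1*, *Efemp2* above *Fbn2*, *Lox* above *Eln* and *Fbn1* above *Fbln2* in 9 of 9 libraries, while *Emilin1* exceeded *Mfap4*, *Fbn2* exceeded *Lox* and *Eln* exceeded *Fbln5* in 6 of 9 and *Fbln5* exceeded *Fbn1* in 3 of 9. Together the 10 genes summed to between 455 FPKM in WT-3 and 663 FPKM in HET-2, and *Mfap2* alone made up between 26.9% and 33.7% of that sum.

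**Figure D1:**
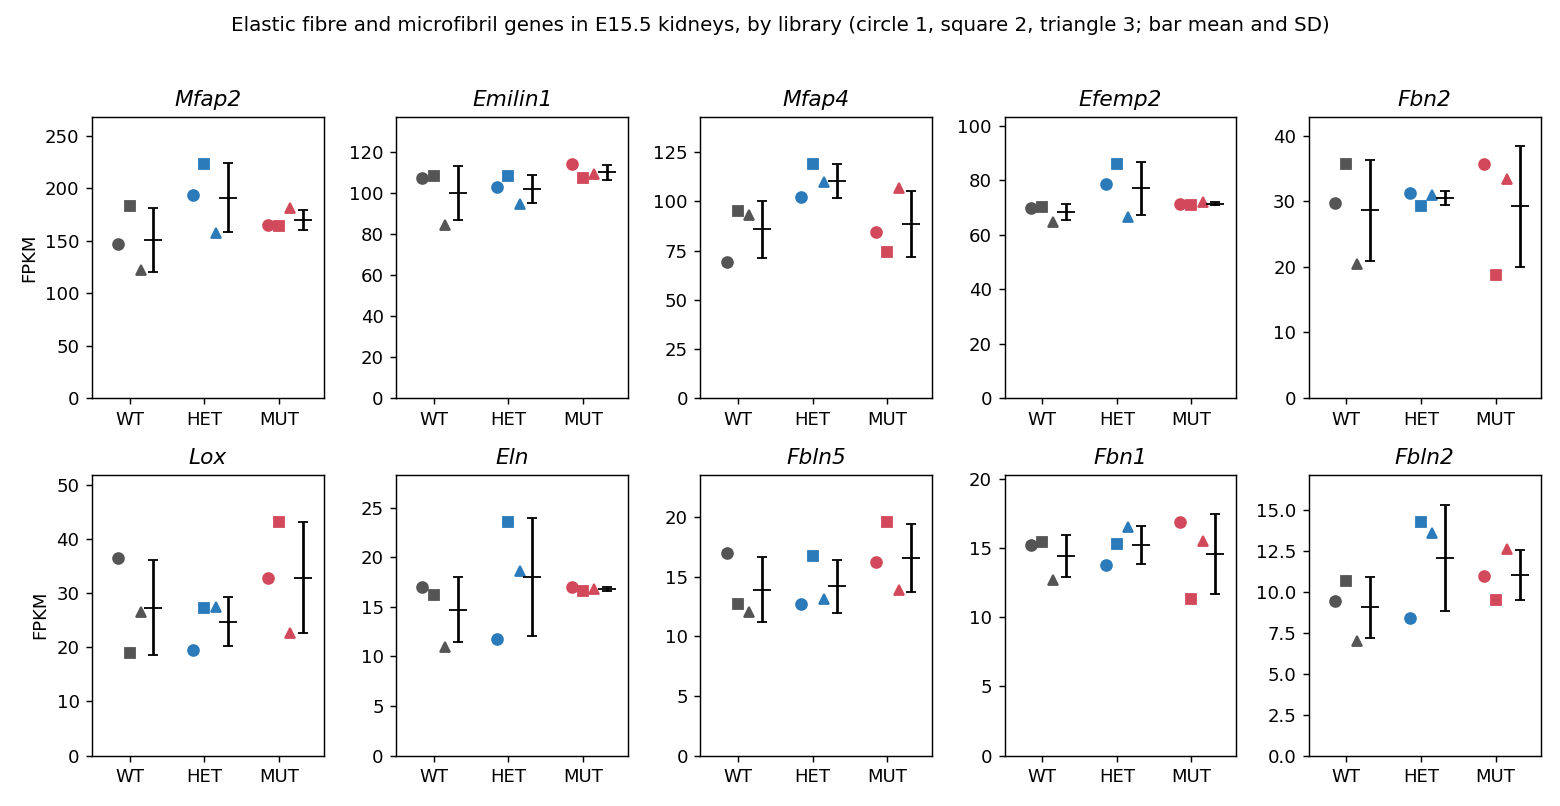
FPKM of each of the 10 genes (vertical axes, FPKM, each starting at 0) in the WT, HET and MUT libraries (horizontal axes). Symbols are single libraries (circle 1, square 2, triangle 3), bars are the mean and s.d. of 3, and genes are ordered by mean level. *Eln* and *Efemp2* are nearly equal in the 3 MUT libraries and spread more widely in HET.

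*Eln* encodes tropoelastin, the core of the fibre, and lies on chromosome 5 from 134702596 to 134747254 (mm10, as are all positions of loci here). Its level in libraries 1, 2 and 3 was 17, 16.2 and 11 FPKM for WT, 11.8, 23.6 and 18.6 FPKM for HET and 17, 16.6 and 16.8 FPKM for MUT, and values below follow the same order. The groups overlapped in every comparison, and HET held both a kidney near the WT minimum and the highest kidney of all. The s.d. was 5.92 FPKM in HET, 3.26 in WT and 0.213 in MUT. MUT against HET gave *Eln* a log2 fold change of -0.04 (s.e. 0.16, adjusted p = 0.98 in limma with Benjamini-Hochberg adjustment).

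The fibrillins *Fbn1* and *Fbn2* encode the large glycoproteins that polymerise into microfibrils. *Fbn1* (chromosome 2, 125300594 to 125506438) was 15.2, 15.4 and 12.7 FPKM in WT, 13.8, 15.3 and 16.5 in HET, and 16.9 and 11.3 in MUT-1 and MUT-2, with MUT-3 between HET-2 and HET-3. *Fbn2* (chromosome 18, 58008623 to 58209926) was 29.8, 35.7 and 20.4 FPKM in WT, 31.2, 29.3 and 31 in HET, and 35.7, 18.7 and 33.4 in MUT. In both, MUT-2 was the lowest of the 9 libraries and WT-3 the next lowest. *Fbn2*, often described as the fibrillin of embryonic tissue, was above *Fbn1* in level, with means of 29.5 and 14.7 FPKM. Group means of *Fbn2* were 28.6 FPKM in WT, 30.5 in HET and 29.3 in MUT, with s.d. of 7.73, 1.04 and 9.24 FPKM.

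The fibulins link tropoelastin to the scaffold. *Efemp2* (chromosome 19, 5474690 to 5481854) encodes fibulin 4, which brings lysyl oxidase to tropoelastin. It was 69.9, 70.2 and 64.8 FPKM in WT, 78.6, 86 and 66.6 in HET, and 71.4, 70.9 and 72.1 in MUT. All 3 MUT kidneys lay above all 3 WT kidneys, by a ratio of means of 1.05. *Fbln5* (chromosome 12, 101746565 to 101819119) encodes fibulin 5, which binds tropoelastin and integrins. It was 17, 12.7 and 12 FPKM in WT, 12.7, 16.7 and 13.1 in HET, and 16.2, 19.6 and 13.9 in MUT, with MUT-2 the highest library. *Fbln2* (chromosome 6, 91212764 to 91272540) encodes fibulin 2, found in vessel walls and basement membranes. It was 9.46, 10.7 and 7 FPKM in WT, 8.39, 14.3 and 13.6 in HET, and 11, 9.53 and 12.6 in MUT. HET-2 and HET-3 stood above every other library for *Fbln2*, and HET-1 lay among the WT kidneys.

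*Mfap2*, *Mfap4* and *Emilin1* encode glycoproteins found on microfibrils or at the border between elastin and microfibrils. *Mfap2* (chromosome 4, 141010424 to 141015984) was 147, 183 and 122 FPKM in WT, 193, 223 and 157 in HET, and 165, 164 and 181 in MUT. *Mfap4* (chromosome 11, 61485444 to 61488704) was 69.2, 95 and 93.3 FPKM in WT, 102, 119 and 110 in HET, and 84.3, 74.4 and 107 in MUT. For *Mfap4*, all 3 HET kidneys lay above all 3 WT kidneys and MUT-3 alone among MUT kidneys reached the HET range. *Emilin1* (chromosome 5, 30913786 to 30921273), whose product sits between elastin and microfibrils and can restrain TGF-β processing, was 107, 108 and 84.5 FPKM in WT, 103, 108 and 94.7 in HET, and 114, 107 and 109 in MUT. Its lowest library was WT-3, and its 3 MUT values differed by less than those of WT or HET (s.d. 3.52 FPKM, against 13.2 and 6.89).

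*Lox* (chromosome 18, 52516060 to 52529867) encodes lysyl oxidase, the crosslinking enzyme of elastin and collagen. It was 36.5, 19 and 26.5 FPKM in WT, 19.5, 27.2 and 27.5 in HET, and 32.7, 43.2 and 22.7 in MUT. *Lox* had the widest range of the 10 genes, with MUT-2 at 2.27 times WT-2, and all 3 groups overlapped.

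The study's own comparison was MUT against HET, since both carry the Cre insertion in *Foxd1*. Of the 10 genes, 3 were higher in MUT by the mean of log2 values (*Fbln5*, *Emilin1* and *Lox*) and 7 lower, while 45.9% of all loci tested were higher. The 10 genes had a median log2 fold change of -0.08 against -0.02 over all loci tested. None passed the test: limma with Benjamini-Hochberg adjustment called 0 of 10081 loci (0% of the loci tested), and the adjusted p of the 10 genes ranged from 0.933 to 0.98. At an unadjusted p under 0.05 there were 494 loci (4.9%) and 0 of the 10 genes. Without the replicate block there were 636 of 10081 loci and 1 gene of the 10, *Mfap4* (limma unadjusted p = 0.0455). With all 9 libraries in 1 fit and the block kept, there were 558 of 10081 loci and *Mfap4* again (limma unadjusted p = 0.0482). With a minimum of 10 FPKM there were 407 of 7841 loci and 1 gene, *Lox* (limma unadjusted p = 0.0378). *Lox* had the largest positive value, a log2 fold change of 0.37 (s.e. 0.18, 95% interval -0.02 to 0.75), and *Mfap4* the largest negative one, -0.33 (s.e. 0.17, interval -0.69 to 0.03), which was -0.16 without replicate 2 and -0.47 without replicate 3. *Fbln5* was at 0.21 (s.e. 0.12) and *Mfap2* at -0.16 (s.e. 0.18). With a replicate or library left out they ranged from 0.09 to 0.33 and from -0.33 to -0.02. For no gene of the 10 did the 3 MUT kidneys stand clear of the 3 HET kidneys, which they did for 9.69% of the loci tested. The 95% intervals of the 10 genes together ran from 0.619-fold to 1.68-fold on the log2(FPKM + 1) scale. In fits without the replicate block, the median of the 10 genes without HET-2 was 0.01, with 5 of 10 higher in MUT, and without HET-2 and HET-3 it was 0.08, with 6 of 10 higher and *Lox* at 0.68 (s.e. 0.26). Without replicate 3 in both genotypes, *Lox* had a log2 fold change of 0.68 (s.e. 0.14, limma adjusted p = 0.0337), in a fit that called 148 of 10174 loci. Without MUT-2, and without the block, it was 0.15 (s.e. 0.19).

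**Figure D2:**
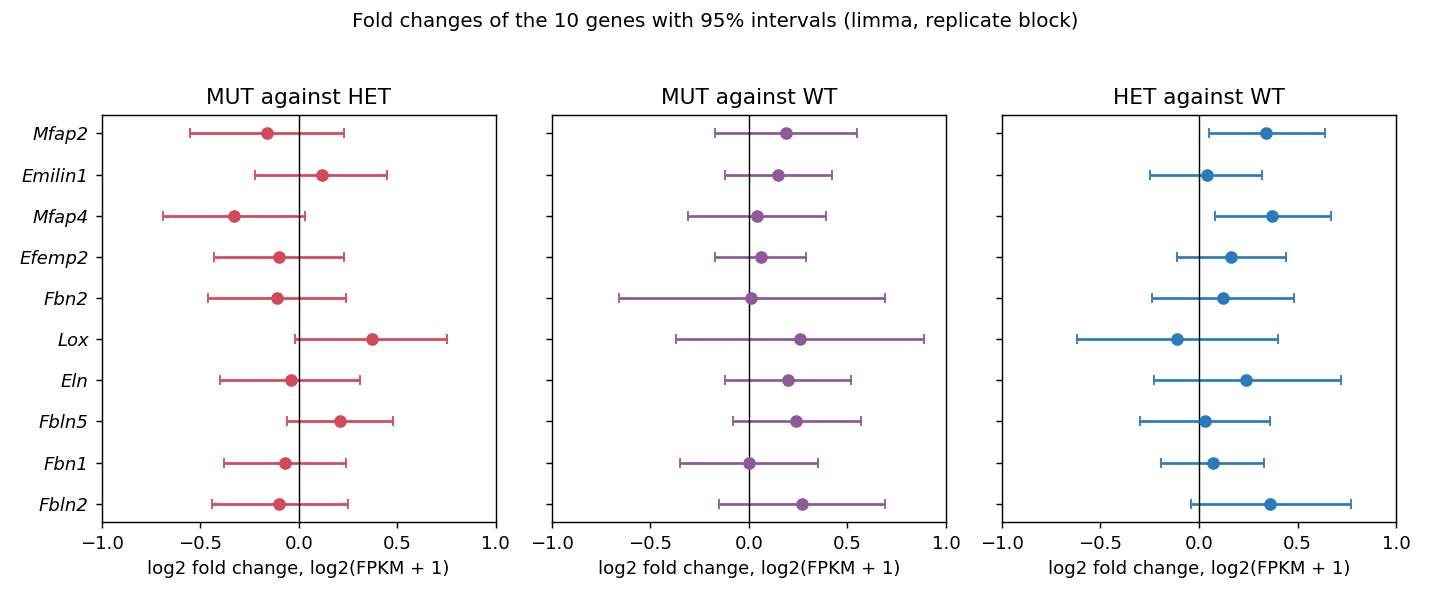
Log2 fold change of each gene on the log2(FPKM + 1) scale (horizontal axes) for MUT against HET, MUT against WT and HET against WT, with genes in rows. Points are limma estimates with the replicate block and bars are 95% intervals without adjustment for multiple tests. Every interval includes 0 except those of *Mfap2* and *Mfap4* in HET against WT.

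Between MUT and WT, which differ in both the *Foxd1* allele and *Ntn1*, 9 of the 10 genes were higher in MUT by the fitted value and *Fbn1* lay at about 0. The median log2 fold change was 0.17 over the 10 genes and 0.19 with the FPKM rescaled by median ratios. With a GC correction it was 0.08, with 9 of 10 above 0. Of all loci tested, 48.7% had a value above 0. Limma called 0 of 10096 loci (0%), 201 loci (1.99%) and 0 of the 10 genes had an unadjusted p under 0.05, and the adjusted p of the 10 genes ranged from 0.995 to 0.999. *Fbln2* was at 0.27 (s.e. 0.17), *Lox* at 0.26 (s.e. 0.26) and *Fbln5* at 0.24 (s.e. 0.14) on the log2 scale. *Fbln2* was at 0.02 without replicate 3 and 0.48 without replicate 2, and *Fbln5* at 0.07 without replicate 2 and 0.40 without replicate 1. *Lox* turned to -0.18 without replicate 2 and was at 0.49 without replicate 3. *Efemp2* was the gene whose groups did not overlap, with a log2 fold change of 0.06 (s.e. 0.10), and 1.32% of the loci tested were higher in every MUT than in every WT kidney. The exact permutation test gave p = 0.1 for *Efemp2*, the smallest that 3 libraries against 3 can give. WT-3 was the lowest library of the 9 for 6 genes (*Eln*, *Fbln2*, *Fbln5*, *Efemp2*, *Mfap2* and *Emilin1*), and without replicate 3 the median of the 10 genes was 0.02. Without replicate 2, *Fbn2* had a log2 fold change of 0.47 (limma adjusted p = 0.0378) in a fit that called 168 of 10141 loci, against 0.01 with all 3 pairs. In that fit, 6 of the 10 genes and 1088 of all loci tested had an unadjusted p under 0.05 in limma. Without replicate 1 or replicate 3, 0 of the 10 genes did.

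Between HET and WT, 9 of the 10 genes were again higher in HET and *Lox* lower (log2 fold change -0.11, s.e. 0.22), with a median of 0.14 against 0.01 over all loci tested, of which 52.4% had a value above 0. Without replicate 1, *Lox* was at 0.27 and 10 of the 10 genes were higher in HET, with a median of 0.26. Without replicate 2, 8 of the 10 were higher, with a median of 0.11. With a GC correction the median of the 10 genes was 0.09. Both comparisons with WT rest on the same 3 WT kidneys. Limma called 0 of 10105 loci (0%), and the adjusted p of the 10 genes was between 0.994 and 0.995. At an unadjusted p under 0.05 there were 233 loci (2.31%, and 0.95% in the direction of higher HET), among them *Mfap4* and *Mfap2*, both higher in HET. *Mfap4* was 110±8.53 FPKM in HET and 85.8±14.5 in WT, a log2 fold change of 0.37 (s.e. 0.13, 95% interval 0.08 to 0.67, limma unadjusted p = 0.0198). The 2 groups did not overlap for *Mfap4*, as for 2.15% of the loci tested in that direction, and 1.08% of loci also had a ratio of means of at least 1.2 in either direction. *Mfap2* was 191±32.9 and 151±30.6 FPKM, a log2 fold change of 0.34 (s.e. 0.13, interval 0.05 to 0.64, limma unadjusted p = 0.0288), and its groups overlapped. Without the replicate block the limma unadjusted p was 0.0791 for *Mfap2* and 0.0286 for *Mfap4*, and with a GC correction it was 0.0513 and 0.0397. The study's rule asks for a ratio of means of at least 1.2 and a P no higher than 0.05, taken here as one-sided and over same-numbered differences, a form inferred from the P values it lists. It called *Mfap2* and *Mfap4* in HET against WT (0.881% of the loci tested met it) and no gene of the 10 in the other comparisons (1.96% of loci in MUT against HET and 0.911% in MUT against WT).

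HET-2, the library with high liver markers, was the highest of the 9 for *Eln*, *Fbln2*, *Efemp2*, *Mfap2* and *Mfap4*. Without HET-2, and without the replicate block, as in all fits that leave out single libraries, the log2 fold change between HET and WT was 0.32 (s.e. 0.18) for *Mfap4* and 0.23 (s.e. 0.20) for *Mfap2*. Over all such fits and those without a replicate number it ranged from 0.23 to 0.45 for *Mfap4* and from 0.20 to 0.49 for *Mfap2*. With HET-1 as the only HET library it was 0.26 (s.e. 0.26) and 0.37 (s.e. 0.27), and the median of the 10 genes was -0.01, with 5 of 10 above 0. *Eln*, *Fbn1*, *Fbln2* and *Fbln5* then lay below WT, with log2 fold changes of -0.28, -0.06, -0.08 and -0.11. Without WT-3 the median was 0.02. The sum of the 8 smooth muscle markers was highest in HET-2 as well, while 4 of the 8 (*Des*, *Tagln*, *Smtn* and *Myocd*) had their highest level in another library. They summed to 151, 142 and 163 FPKM in WT, 179, 223 and 164 in HET, and 143, 168 and 152 in MUT. Of the 6 tested, 6 were higher in HET than in WT, 3 at an unadjusted p under 0.05 in limma and 0 after adjustment. In MUT against HET, 5 of the 6 were lower, 4 at an unadjusted p under 0.05 and 0 after adjustment, with a median log2 fold change of -0.32. In MUT against WT, 3 of the 4 tested were higher and 1 lower, with a median of 0.03 and 0 at an unadjusted p under 0.05 in limma. *Acta2*, the most abundant and the actin of contractile smooth muscle, was 57.6, 54.7 and 72.1 FPKM in WT, 72.7, 95 and 66.6 in HET, and 52.4, 67.6 and 60 in MUT. The part of liver, skeletal muscle and smooth muscle markers in the levels of the 10 genes was not tested.

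**Figure D3:**
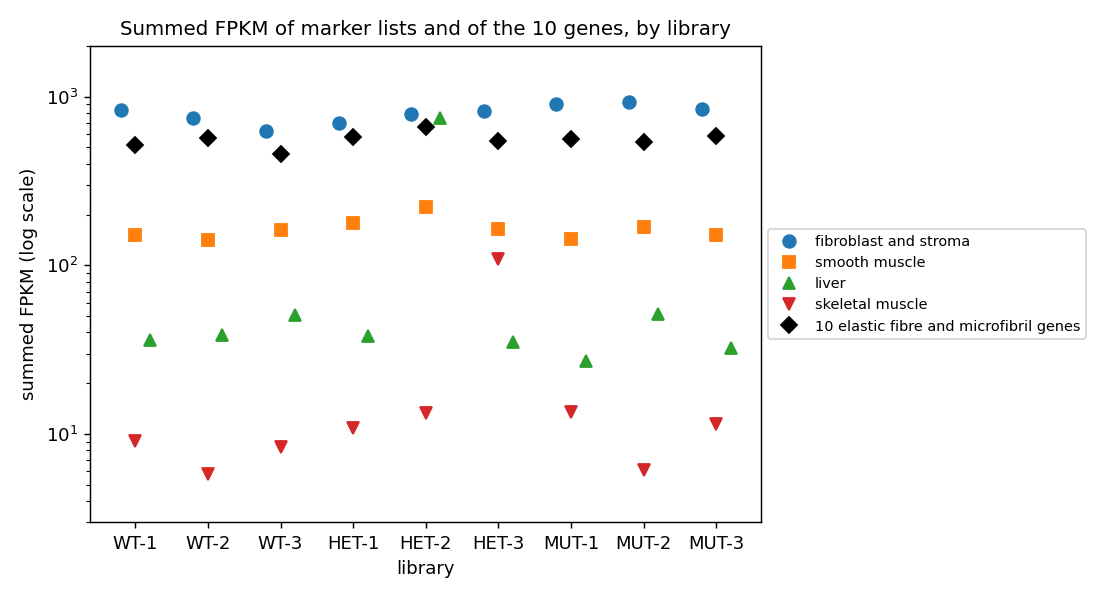
Summed FPKM (vertical axis, log scale) of the marker lists for fibroblast and stroma, smooth muscle, liver and skeletal muscle, and of the 10 elastic fibre and microfibril genes, in each of the 9 libraries (horizontal axis). The liver sum reaches 750 FPKM in HET-2 and the skeletal muscle sum 109 FPKM in HET-3, while the sum of the 10 genes stays between 455 and 663 FPKM.

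Fibroblast, mural and other kidney markers also differed between libraries. The 7 fibroblast and stroma markers, led by *Col3a1*, summed to between 627 FPKM in WT-3 and 931 FPKM in MUT-2, and WT-3 was thus the lowest library for these markers as well as for the sum of the 10 genes. Their sums were 838, 751 and 627 FPKM in WT, 699, 792 and 822 in HET, and 911, 931 and 845 in MUT. In MUT against HET, 5 of the 7 were higher and 2 lower, with a median log2 fold change of 0.08, and the higher MUT sums rest largely on *Col1a1*, at 153, 143 and 173 FPKM in HET and 240, 214 and 232 in MUT, and *Col1a2*, at 192, 211 and 191 FPKM and 254, 252 and 218 FPKM. In MUT against WT, 7 of the 7 were higher, with a median log2 fold change of 0.22 and 0 called by limma (1 at an unadjusted p under 0.05), in the same direction as 9 of the 10 genes, and the part of these markers in that result was not tested. The 5 stromal progenitor markers, led by *Tcf21*, summed to between 336 and 365 FPKM, and the 6 endothelial markers, led by *Emcn*, to between 202 and 222 FPKM. The 5 pericyte and mural markers, led by the joined renin locus *Ren1,Ren2*, summed to 260, 226 and 229 FPKM in WT, 182, 198 and 158 in HET, and 188, 208 and 151 in MUT, and the difference lay mainly in *Ren1,Ren2*, at 149, 137 and 136 FPKM in WT, 108, 115 and 69.4 in HET, and 75.2, 106 and 64.3 in MUT. In MUT against HET, 4 of these 5 loci were higher and 1 lower, with a median log2 fold change of 0.07. Of them, 1 had an unadjusted p under 0.05 in limma and 0 passed after adjustment. In MUT against WT, 2 of these 5 loci were higher and 3 lower, with a median log2 fold change of -0.01. *Ren1,Ren2* was at -0.81 there (limma unadjusted p = 0.0016), with 0 called after adjustment. In HET against WT all 5 were lower, 2 at an unadjusted p under 0.05 in limma (*Ren1,Ren2* and *Rgs5*) and 0 after adjustment, with a median log2 fold change of -0.26, against 9 of the 10 genes higher, and the part of these markers in that result was not tested. The nephron progenitor list, led by *Cited1*, and the ureteric list, led by *Calb1*, summed to between 177 and 283 and between 133 and 175 FPKM. In MUT against WT, 5 of 5 markers were higher in both lists, with median log2 fold changes of 0.13 and 0.14, respectively. In HET against WT, 4 were higher and 1 lower in both, with medians of 0.2 and 0.06. The part of these markers in the levels of the 10 genes was not tested. Red cell genes, led by alpha globin, reached 1534 FPKM in HET-2 and lay between 787 and 936 elsewhere, with *Hbb-bt* not matched. The cartilage list, led by *Col2a1*, was between 10 and 16.6 FPKM. All 5 adrenal cortex markers were under 1 FPKM in every library, with *Cyp11a1* the most abundant, *Hsd3b1* listed at 0 in 3 libraries and *Cyp17a1* in 2.

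Genes of the same fibre did not all vary together between kidneys. Over the 9 libraries, Pearson's r of log2(FPKM + 1) was computed for all 45 pairs of the 10 genes, and 35 pairs had r above 0, with a median of 0.35. *Eln* and *Fbln2* had r = 0.90 (exact permutation p = 0.000656, adjusted p = 0.0295 over the 45 pairs) and Spearman's rho of 0.85 (exact p = 0.00607, adjusted p = 0.137). Their r was 0.89 after each genotype's mean was subtracted and 0.73 without WT-3 and HET-1, the libraries farthest from the median of *Eln*. *Efemp2* and *Mfap2* had r = 0.88 (exact permutation p = 0.00168, adjusted p = 0.0379) and rho of 0.88 (exact p = 0.00308, adjusted p = 0.137), with r = 0.83 within genotypes and 0.81 without HET-1 and HET-2. The 2 fibrillins had r = 0.90 (exact permutation p = 0.0032, adjusted p = 0.048) and rho of 0.73 (exact p = 0.0311, adjusted p = 0.35), with r = 0.89 within genotypes. Without WT-3 and MUT-2 the fibrillins had r = 0.39, so their relation rests on those kidneys. No pair passed the adjustment by Spearman's rho.

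*Lox* and *Fbln5* formed a further pair, with r = 0.83 (exact permutation p = 0.00616, adjusted p = 0.0693) and rho of 0.78 (exact p = 0.0172, adjusted p = 0.258), and r = 0.58 without WT-1 and MUT-2. *Lox* ran against *Mfap4*, with r = -0.68 (exact permutation p = 0.0455, adjusted p = 0.38) and rho of -0.52 (exact p = 0.162, adjusted p = 0.485), and r = -0.17 without the same 2 kidneys. In MUT-2, *Lox* and *Fbln5* were at their highest and *Fbn1* and *Fbn2* at their lowest of the 9 libraries. The RNA of *Lox* and of the fibrillins was thus at opposite ends of its range in 1 mutant kidney, and the other 2 mutant kidneys did not share this. *Fbn1* and *Fbn2* have the longest transcripts of the 10 genes (11971 and 11041 bases). *Lox* and *Fbln5* have the lowest GC content (43.9% and 46.9%). The part of transcript length and GC content in this pattern and in these pairs was not tested.

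**Figure D4:**
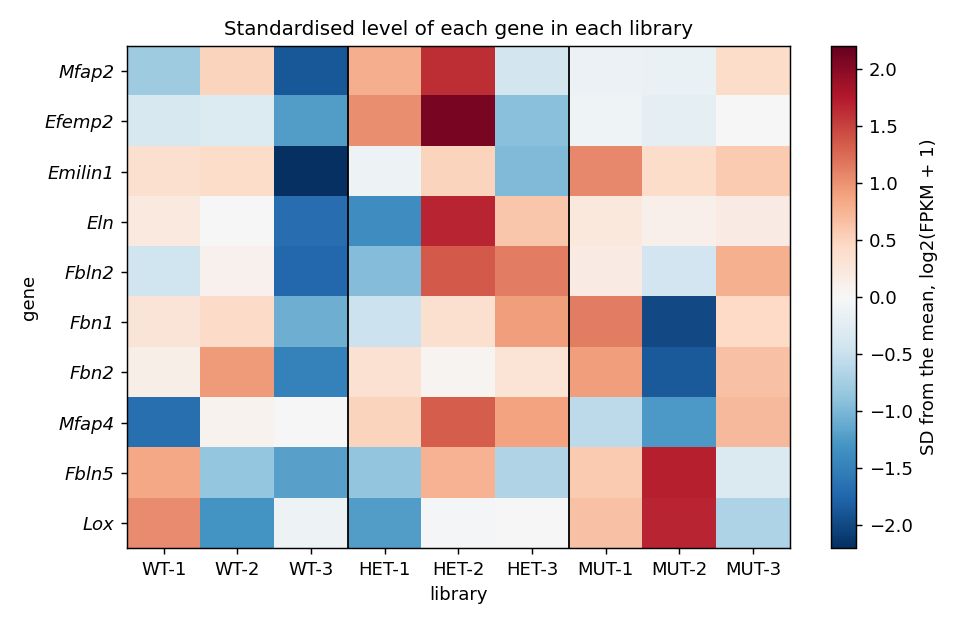
Level of each gene (rows) in each library (columns) as the number of s.d. from that gene's mean over the 9 libraries, on the log2(FPKM + 1) scale, from low (blue) to high (red). Black lines separate the genotypes. WT-3 is low for most genes, HET-2 is high for most, and MUT-2 is high for *Fbln5* and *Lox* and low for *Fbn1* and *Fbn2*.

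Among the 3 pairs that passed the adjustment, *Efemp2* and *Mfap2* were the one for which the promoters of both genes were in the RefSeq table used here (GRCm38.p6), and they are shown to let the start regions of 2 abundant genes that varied together be read side by side. Each sequence runs from 250 bases before to 50 bases after a start that lies at the edge of the deposited locus. Capitals mark GC boxes (GGGCGG on either strand) and CCAAT boxes (CCAAT on either strand). The first is chr19:5474440-5474739 on the plus strand and the second chr4:141010174-141010473 on the plus strand.
Efemp2: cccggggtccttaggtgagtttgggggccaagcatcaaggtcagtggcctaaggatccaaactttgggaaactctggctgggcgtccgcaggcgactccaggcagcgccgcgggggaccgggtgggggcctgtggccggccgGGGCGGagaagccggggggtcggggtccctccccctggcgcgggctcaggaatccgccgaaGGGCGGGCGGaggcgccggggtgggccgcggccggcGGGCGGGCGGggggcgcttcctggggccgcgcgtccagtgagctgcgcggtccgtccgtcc
Mfap2: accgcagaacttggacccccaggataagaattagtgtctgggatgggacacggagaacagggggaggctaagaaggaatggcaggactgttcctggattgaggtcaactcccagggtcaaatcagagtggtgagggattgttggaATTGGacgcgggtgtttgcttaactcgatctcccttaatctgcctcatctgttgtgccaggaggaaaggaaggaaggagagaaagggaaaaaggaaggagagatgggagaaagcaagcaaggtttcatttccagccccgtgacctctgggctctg
The *Efemp2* sequence held 5 GC boxes, some of them overlapping each other, and no CCAAT box, and its GC content was 76%. The *Mfap2* sequence held no GC box and 1 CCAAT box, which reads ATTGG on this strand, and its GC content was 52%. The contrast depends on the start used: a further *Mfap2* start, at 141010681, had 2 GC boxes, no CCAAT box and a GC content of 68%, and *Efemp2* had 2 further starts with 2 and 7 GC boxes. A GC box was in 35.7% and a CCAAT box in 37.4% of the 32851 promoters of the same length. Promoters were found for 6 of the 10 genes (*Fbn1*, *Fbln2*, *Fbln5*, *Efemp2*, *Mfap2* and *Emilin1*) and not for *Eln*, *Mfap4*, *Lox* and *Fbn2*. At the starts on the edge of the locus, *Fbln2* and *Fbln5* held 2 GC boxes each, *Fbn1* held 1 and *Emilin1* none, and none of the 6 held TATAAA, which 13.6% of all promoters do. These matches describe letters in a window, and no binding was measured.

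The wider assembly and turnover machinery was covered by 52 further genes in 7 lists, of which 34 were expressed at 5 FPKM or more and tested. In MUT against HET, 24 of the 34 were higher and 10 lower in MUT, beside 45.9% higher over all loci tested. The 34 genes had a median log2 fold change of 0.09, against -0.02 over all loci tested. None passed the adjusted threshold and 4 had an unadjusted p under 0.05 in limma, against 4.9% of all loci tested. *Ltbp4*, a latent TGF-β binding protein that also helps to place tropoelastin through fibulin 5, was 28.3, 21.5 and 14.2 FPKM in WT, 16.7, 17.4 and 15.6 in HET, and 28.9, 23.5 and 20.1 in MUT. All 3 MUT kidneys lay above all 3 HET kidneys for *Ltbp4*, with a log2 fold change of 0.51 (s.e. 0.13, adjusted p = 0.869 in limma), while WT overlapped both. Such a gap between MUT and HET was found for 4 of the 34 genes (*Ltbp4*, *Mmp14*, *Efemp1* and *Timp2*), beside 9.69% of all loci tested. *Hspg2*, the basement membrane proteoglycan perlecan, was 21.3, 19.2 and 20.9 FPKM in HET and 43.1, 20.4 and 29.2 in MUT (log2 fold change 0.51, s.e. 0.16, limma adjusted p = 0.933), and the groups overlapped. *Mmp14*, a membrane-bound matrix metalloproteinase, was 71.7, 72.3 and 80.4 FPKM in HET and 99.2, 89.6 and 93.8 in MUT (log2 fold change 0.33, s.e. 0.15, limma adjusted p = 0.933), with no overlap. In WT, *Hspg2* was 36, 29.5 and 16.4 FPKM and *Mmp14* 90.9, 90 and 62.3 FPKM, and WT overlapped both HET and MUT for each gene. *Thsd4*, an ADAMTS-like protein that promotes fibrillin assembly, was at 0.31 (s.e. 0.14) with overlapping groups.

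The balance of higher and lower genes in MUT against HET varied between the 7 lists. Of the latent TGF-β binding proteins, 3 of 3 tested were higher in MUT, with *Ltbp3* at 0.22 (s.e. 0.13). Of the RGD-binding integrin chains, 5 of 5 were higher, with *Itga5* at 0.20 (s.e. 0.13) and *Itgav* at 0.18 (s.e. 0.13). Of 6 other fibulins, emilins and microfibril-associated proteins, 4 were higher and 2 lower, with *Efemp1* at 0.22 (s.e. 0.15) and *Mfap5* at -0.16 (s.e. 0.14). Of 6 crosslinking and processing genes, 4 were higher and 2 lower, with the procollagen C-proteinase enhancer *Pcolce* at -0.22 (s.e. 0.15) and the lysyl oxidase homologue *Loxl2*, whose locus is joined with *Mir6950*, at 0.14 (s.e. 0.13). Of 5 proteoglycans and fibronectin, 2 were higher and 3 lower, with versican (*Vcan*) at -0.30 (s.e. 0.15). Of 7 proteinases and inhibitors, 4 were higher and 3 lower, with *Timp1* at -0.14 (s.e. 0.14). Both ADAMTS-family genes tested were higher, with *Adamts10* at 0.04 (s.e. 0.13). Neutrophil elastase (*Elane*) was listed at 0 in 6 libraries and *Mmp12* in WT-3. Between MUT and WT, 23 of the 34 genes were higher and 11 lower, with none at an unadjusted p under 0.05 in limma and none called. Over all loci tested there, 48.7% were higher and 1.99% had an unadjusted p under 0.05. Between HET and WT, 15 of the 34 genes were higher and 19 lower, with 2 at an unadjusted p under 0.05 and none called. Over all loci tested there, the shares were 52.4% and 2.31%.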

How the data were processed

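RNA from 9 whole kidneys was made into libraries with a stranded mRNA kit and sequenced. The deposited table holds FPKM per locus, which the authors obtained with CuffDiff after STAR alignment and assembly by cufflinks and cuffmerge. The build is mm10 per the labels, and tool versions are not given in the sources used here. FPKM hide the read depth behind each value, so counting intervals cannot be given. Library sums of FPKM ran from 453753 (WT-1) to 545598 (WT-2).

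Loci that averaged 5 FPKM or more in 1 of the 2 genotypes of a comparison were tested on log2(FPKM + 1) by limma 3.58.1 (lmFit, then eBayes with a trend) under R 4.3.3, two-sided, with Benjamini-Hochberg adjustment over all loci tested, a threshold of 0.05 and the replicate number as a block. The step was tested on simulated data first. A fold change on this scale understates that of low genes. The block was kept because 3 crosses were used and the P values the study lists were inferred to come from same-numbered differences, which its methods do not state. It is not stated that a number marks a cross. With the block, limma p values rest on the spread between these kidneys left after genotype and replicate number, moderated over all loci tested. Exact permutation tests were two-sided, and 3 libraries against 3 cannot give p under 0.1. Intervals are 95% intervals. Correlations used exact permutations, and summaries were made with Python 3.11.15, pandas 2.3.3 and scipy 1.17.1.

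The 10 genes, the lists and the markers were chosen with earlier results of these data known. Genes named beyond the 10 are *Ntn1*, *Foxd1*, the 2 tested genes with the smallest p between MUT and HET in each of the 7 lists, the most abundant marker of each list with those listed at 0, and the 5 loci most like the 10 genes. *Six2*, *Ret*, *Alb*, *Xist*, *Ddx3y*, *Mmp12*, *Elane*, *Timp2*, *Col1a1*, *Col1a2*, *Rgs5*, *Des*, *Tagln*, *Smtn* and *Myocd* are named besides, after their values were seen. As alternatives, the pseudocount was set to 0.1 and 3 and the FPKM minimum to none, 1 and 10, and further fits used median-ratio and quantile rescaling, no block, all 9 libraries in 1 fit, a GC correction, no trend, other call rules, and single replicates (with the block) or libraries (without it) left out.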

Additional observations from a re-analysis of the deposited data

How the results depend on the processing

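With 3 kidneys per genotype and an unknown read depth, precision is limited to the spread of 3 libraries. By limma's adjusted p, the number of loci called was 0 in every fit that kept all libraries. With a replicate number or a single library left out it ranged from 0 to 148 between MUT and HET, from 0 to 168 between MUT and WT and from 0 to 125 between HET and WT, highest without replicates 3, 2 and 3, respectively, each in a fit with 1 residual degree of freedom. Without HET-2 and HET-3, a choice made after the data were seen, 5 loci were called between MUT and HET and 46 between HET and WT, with the lone HET library assumed to vary like the other genotype. The cause of these counts was not tested beyond the smaller number of libraries.

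Of the 10 genes, between 0 and 1 were called with a replicate left out in MUT against HET (*Lox*, in the fit with 148 loci called) and in MUT against WT (*Fbn2*, in the fit with 168). In HET against WT, 2 were called by the study's rule and 1 by a ratio of at least 1.2 with no overlap. Without the replicate block, 0 of the 10 genes were called in any comparison, as with it, and the medians were -0.08 for MUT against HET and 0.14 for HET against WT. The deviations of same-numbered libraries from their group means had mean correlations of -0.13 for MUT and HET, 0.09 for MUT and WT and -0.03 for HET and WT. The block changed no call at the adjusted threshold, while the genes of the 10 with an unadjusted p under 0.05 numbered 2 with it and 1 without it in HET against WT, and 0 and 1 in MUT against HET. Over all 10081 loci tested in MUT against HET, 494 had such a p with the block and 636 without it.

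Of 620 values of single genes under an alternative, 569 kept their direction and side of the threshold and 49 turned direction, none of which passed the threshold. Without HET-2 and HET-3, values between MUT and HET were 0.48 for *Eln*, 0.06 for *Fbn1* and 0.35 for *Fbln2*, and those between HET and WT were -0.28, -0.06 and -0.08 for the same genes and -0.11 for *Fbln5*. *Fbn1* between MUT and WT was 0.02 with median-ratio and 0.01 with quantile rescaling, and *Emilin1* between HET and WT was -0.02 with quantile rescaling. With a replicate or library left out, values between MUT and HET ranged from -0.31 to 0.18 for *Eln*, -0.25 to 0.10 for *Fbn1*, -0.27 to 0.18 for *Fbn2* and -0.32 to 0.12 for *Fbln2*. Between MUT and WT they ranged from -0.14 to 0.21 for *Fbn1*, -0.32 to 0.47 for *Fbn2*, -0.11 to 0.24 for *Mfap4* and -0.18 to 0.49 for *Lox*. Between HET and WT they ranged from -0.07 to 0.17 for *Fbn1*, -0.11 to 0.32 for *Fbn2*, -0.14 to 0.25 for *Fbln5*, -0.08 to 0.10 for *Emilin1* and -0.41 to 0.27 for *Lox*. In HET against WT, *Eln* and *Fbln2* kept their direction with a replicate or library left out but ranged from 0.01 to 0.61 and from 0.11 to 0.62. At an unadjusted p under 0.05 in limma there were 4 of the 10 genes without replicate 1 and 1 without replicate 2. Both fits have 1 residual degree of freedom, and the share over all loci tested in them is not given here. The counts are therefore not read as a result about the 10 genes. The cause of these changes in direction and size was not tested. With a replicate or library left out, the median over the 10 genes ranged from -0.18 to 0.14 between MUT and HET, from 0.02 to 0.23 between MUT and WT and from 0.00 to 0.26 between HET and WT. Without HET-2 and HET-3 it was 0.08 between MUT and HET and -0.01 between HET and WT.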

Other observations

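Levels over the 9 libraries were compared with the mean standardised level of the 10 genes for 10154 loci outside the 10, genes of the lists included. The most alike were *Pacsin3*, *Mapre2*, *Egflam*, *Rab11b* and *Pltp*, with Pearson's r of 0.95, 0.95, 0.93, 0.93 and 0.93. Without WT-3 and HET-2, the kidneys at the ends of that mean, r was 0.64, 0.80, 0.90, 0.60 and 0.44. These r are a description over 9 libraries that include HET-2 and HET-3, which stand apart in liver and skeletal muscle markers. *Egflam*, which encodes the matrix protein pikachurin, ranged from 6.78 to 10.3 FPKM with a median of 8.68, and *Pltp*, a phospholipid transfer protein, from 9.92 to 18.6 FPKM with a median of 14.4.

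*Xist*, the non-coding RNA of the inactive X chromosome, was 187 FPKM in HET-3 and 173 FPKM in MUT-1, 1.1 and 1.25 FPKM in HET-1 and HET-2, and at most 0.0377 FPKM in the other 5 libraries. *Ddx3y*, a gene of the Y chromosome, was 0.305 FPKM in HET-3, listed at 0 in MUT-1 and between 12.4 and 29.3 FPKM in the others. The labels give no sex of the embryos, and all 3 WT kidneys were of the second kind. The part of sex in the levels of the 10 genes was not tested.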
